A study of Homo sapiens with 48 samples.

Results

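The genes described here are ATF4 and DDIT4 together with the serine synthesis enzymes PHGDH, PSAT1 and PSPH, the mitochondrial one-carbon enzymes SHMT2 and MTHFD2, and the stress targets ASNS, CHAC1 and TRIB3. They are 10 of the 29744 genes in the deposited tables. Of these, 3 (DDIT4, PHGDH and PSAT1) were chosen by measured values of the same libraries, because they were lower in GLIS3 CRISPRko fibroblasts and higher in fibroblasts with GLIS3 activated, and the other 7 were added for their function. The differences of those 3 genes between the groups of an arm are therefore given as a description with no test, and the other 7 genes are tested in every contrast.

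ATF4 is the transcription factor at the end of the integrated stress response. When amino acids run short, or when unfolded proteins, haem loss or viral RNA activate an eIF2α kinase, general translation drops while the ATF4 messenger is translated more, and ATF4 then switches on amino acid synthesis, amino acid import and tRNA charging. In fibroblasts exposed to TGFβ this branch is known for supplying serine and glycine, the latter being the commonest residue of collagen. DDIT4 (also REDD1) is a brake on the growth kinase mTORC1 that is induced by ATF4, by hypoxia and by glucocorticoids.

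The study asked how the transcription factor GLIS3 shapes the response of fibroblasts to TGFβ and IL-1β, cytokines that together raise the profibrotic cytokine IL-11. All cells were an immortalized human skin fibroblast line with a fluorescent mNeonGreen (mNG) tag at IL11. They descend from sorted single-cell clones, into which a lentiviral guide was then brought, and the guide-carrying cells were kept as a selected bulk population. Bulk RNA-seq covered 48 libraries, 3 for each of 16 conditions, taken at 0, 6, 12 and 24 h of TGFβ and IL-1β at 10 ng/ml each. In the CRISPRko arm, with Cas9, the groups were H47_Ctrl (a non-targeting guide) and H47_KO (a guide against GLIS3), called CRISPRko control and GLIS3 CRISPRko below. In the CRISPRa arm, with dCas9–VP64, an activator that raises transcription where its guide binds, the groups were VP64_Ctrl and VP64_A. The titles and the descriptions of the CRISPRa samples name opposite groups as the control. The names used here follow the descriptions, and read by the titles every difference between VP64_A and VP64_Ctrl would change its sign.

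In CPM, a count scaled to the size of its library, GLIS3 ran from 13.5 to 38 over the 12 VP64_A libraries and from 2.31 to 5.29 over the 12 of VP64_Ctrl, so its level goes with the descriptions. With the GLIS3 guide of the CRISPRko arm it ranged from 0.146 to 2.46 CPM, and from 1.55 to 8.63 in that arm's control. The libraries held 2321990 to 10661004 estimated counts, and no pair of replicates was identical. Replicates were unevenly alike, and the chi-square of 2 replicates' counts divided by its degrees of freedom ran from 3.59 to 62.5. It was highest between replicates 1 and 3 of GLIS3 CRISPRko at 24 h and stood at 44.96 and 35.6 between replicate 3 of VP64_Ctrl at 0 h and the others. The 50 most abundant genes took 44.4%, 39.04% and 31.4% of the counts in the first condition and 32.6%, 34.9% and 23.1% in the second. Their part in the results was not tested. Values without these libraries are given for the differences of DDIT4, PHGDH and PSAT1 between the groups at these times, and where a call was lost. Nothing in the labels says that the 3 libraries of a condition came from separate cultures, so p-values measure only the spread between these libraries. All 8 fibroblast markers examined were present, while 9 of 12 markers of other cell types stayed under 1 TPM (transcripts scaled to library and gene length) in every library, EPCAM and CD3E at 0. KRT18, KRT8 and CD68 were expressed, and KRT18, at 871 to 8226 TPM in VP64_A against 493 to 2731 in VP64_Ctrl, carried most of the summed level of these markers (911 to 8267 against 569 to 2788). Its part in the results was not tested.

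ATF4 (chr22:39520559-39522686, GRCh38.p14) binds a composite C/EBP-ATF response element, searched here as TGATGNAA on both strands. RefSeq promoters of 300 bases, from 250 before to 50 after the start site, were matched for 8 of the 10 genes, not for PSPH and SHMT2. A gene could have more than 1 promoter (3 for TRIB3). Of the 8 genes, 2 held the element in a promoter, ASNS and CHAC1, against 3.62% of all 35116 promoters, a share counted per promoter. Both are printed 5′ to 3′ on the strand of the gene, with the match in capitals (in CHAC1 it runs on the opposite strand).
ASNS: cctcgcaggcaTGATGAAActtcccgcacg
CHAC1: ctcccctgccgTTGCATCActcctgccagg
The stretches lie at chr7:97872458-97872487 (minus strand) and chr15:40953251-40953280 (plus strand), and the first base of the match stands 68 bases before the start site of ASNS and 209 before that of CHAC1. A GLIS binding sequence, searched as TGGGGGGT on both strands, was in no promoter of the 8 genes and in 1.47% of all promoters. A match is a description of the letters, and no match says only that these letters were not in this window.

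Levels can be compared between genes only per length, and in unstimulated CRISPRko control fibroblasts ATF4 stood highest at 240.2 ± 18.3 TPM (SD, n = 3). SHMT2 followed at 99.6 ± 6.86, MTHFD2 at 82.8 ± 18.8 and PHGDH at 73.2 ± 3.78. PSAT1 was at 52.8 ± 8.18. The remaining 5 genes were low, TRIB3 at 13.3 ± 2.31, ASNS at 12.0 ± 5.65, PSPH at 11.1 ± 1.19, DDIT4 at 7.52 ± 3.97 and CHAC1 at 5.88 ± 1.82. In this order the libraries of SHMT2 and MTHFD2, and of MTHFD2 and PHGDH, overlapped, as did each neighbouring pair of the 5 low genes, whereas ATF4 and PSAT1 overlapped with no neighbour. DDIT4 had as few as 5 counts in a library, and ASNS and CHAC1 as few as 7, so their single values are the least precise.

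DDIT4 (chr10:72273924-72276036) had the widest gap of the 10 genes between the groups of both arms over the average of the 4 times. In the CRISPRko arm ASNS lay farther from 0 at 6 h (-1.40 against -1.12) and PHGDH at 12 h (-0.98 against -0.92). At 24 h it stood at 44.2, 44.9 and 35.9 normalized CPM (CPM on TMM-scaled library sizes) in the CRISPRko control libraries and at 19.3, 16.1 and 10.4 in GLIS3 CRISPRko. Every GLIS3 CRISPRko library was below every control library at 12 and 24 h, and the groups overlapped at 0 and 6 h. The log2 fold changes were -0.82 at 0 h, -1.12 at 6 h, -0.92 at 12 h and -1.46 at 24 h (standard errors 0.35, 0.39, 0.34 and 0.29). The value at 0 h rested partly on replicate 1 of the control and was -0.42 without it. That at 24 h was -1.70 without replicate 1 and -1.21 without replicate 3 of GLIS3 CRISPRko.

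In the CRISPRa arm DDIT4 separated the groups at all 4 times. Unstimulated VP64_A libraries held 17.1, 10.8 and 7.58 normalized CPM, against 2.32, 2.40 and 2.55 in VP64_Ctrl. At 12 h the VP64_A libraries lay close together at 33, 31.5 and 31.4, and those of VP64_Ctrl at 4.74, 5.47 and 4.83. The log2 fold changes were 2.31 (0 h), 1.40 (6 h), 2.66 (12 h) and 1.28 (24 h), with standard errors of 0.23 to 0.27, and 2.34 at 0 h without replicate 3 of VP64_Ctrl. Over the 4 times the average was 1.91 ± 0.13 (SE), a 3.76-fold difference, and -1.08 ± 0.17 in GLIS3 CRISPRko.

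PHGDH (chr1:119711934-119744215) makes the first and committing step of serine synthesis from a glycolytic intermediate, and PSAT1 (chr9:78297125-78330093) the aminotransferase step after it. At 12 h PHGDH was at 70.2, 76.2 and 63.8 normalized CPM in CRISPRko control libraries and at 32.3, 34.2 and 40.7 in GLIS3 CRISPRko. PSAT1 at 24 h was at 65.3, 60.8 and 65.2 in control and at 25.5, 29.7 and 31.1 in GLIS3 CRISPRko. PSAT1 was lower in every GLIS3 CRISPRko library at all 4 times, and PHGDH at 6, 12 and 24 h.

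The log2 fold changes of PHGDH in GLIS3 CRISPRko were -0.14, -0.57, -0.98 and -0.58 at 0, 6, 12 and 24 h, the second of them -0.31 without replicate 1 of the 6 h control. Those of PSAT1 were -0.79, -0.64, -0.90 and -1.15. Without replicate 1 or replicate 3 of the 24 h knockout, the 24 h values were -0.44 and -0.55 for PHGDH and -1.07 and -1.22 for PSAT1. In VP64_A the values of PHGDH were nearly the same at each time (0.53, 0.56, 0.68 and 0.69), and no library of VP64_A overlapped one of VP64_Ctrl. At 0 h, for example, PHGDH was at 108.4, 144 and 125 normalized CPM in VP64_A and at 79.2, 96.8 and 85.0 in VP64_Ctrl. PSAT1 was higher in VP64_A by 0.46, 0.27, 0.76 and 0.55 and overlapped between the groups at 6 h alone. Without replicate 3 of VP64_Ctrl the 0 h values were 0.51 for PHGDH and 0.46 for PSAT1.

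These sizes depend on the scale. On the TPM scale the median of all genes moved by -0.33 between VP64_Ctrl and VP64_A at 0 h and by -0.25 at 24 h, against -0.02 at both times on the scale used here. PHGDH then stood at 0.14 and PSAT1 at 0.06 at 0 h, both above that median, and at 0.37 and 0.24 at 24 h. DDIT4 stood at 1.54 at 0 h and 0.94 at 24 h. In GLIS3 CRISPRko the median moved by -0.32 at 6 h and by 0.30 at 24 h on the TPM scale, and PHGDH stood at -0.88 and -0.22. PSAT1 stood at -0.99 and -0.76. No value of DDIT4, PHGDH or PSAT1 between the groups of an arm changed its sign.

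**Figure D1:**
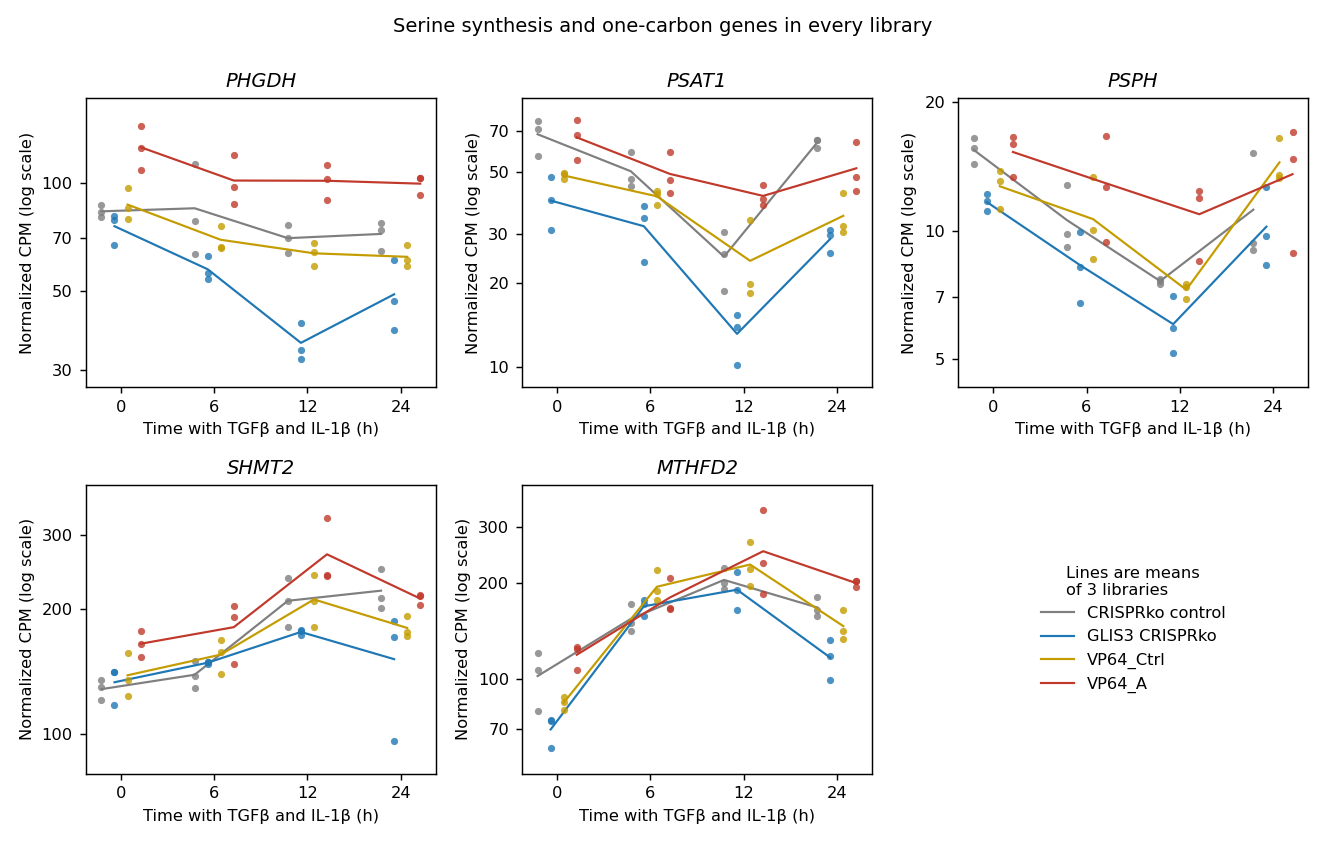
Normalized CPM (log scale) of PHGDH, PSAT1, PSPH, SHMT2 and MTHFD2 against hours with TGFβ and IL-1β (times evenly spaced), with a point per library and a line through the mean of 3 libraries for each group of cells. GLIS3 CRISPRko lies lowest for PHGDH from 6 h on (32.3 to 40.7 at 12 h), PSAT1 and PSPH dip at 12 h, and MTHFD2 climbs from 0 h in every group.

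Of the 7 genes added for their function, none passed in GLIS3 CRISPRko against control at a single time (edgeR's quasi-likelihood test, adjusted p under 0.05). All genes tested passed at rates of 0.301%, 0.319%, 0.0821% and 0.21% at 0, 6, 12 and 24 h. An unadjusted p under 0.05 was reached by 1, 1, 1 and 4 of the 7 genes. Of all 10962 genes 1253, 1228, 842 and 1096 reached it at these times. DESeq2 called MTHFD2 at 0 h (log2 fold change -0.57, adjusted p = 0.0295) and none at the other times. In VP64_A against VP64_Ctrl, TRIB3 at 12 h was the call by edgeR, where 9.41%, 3.76%, 4.31% and 4.13% of all genes passed at the 4 times. DESeq2 called it too, and also MTHFD2 at 0 h (0.50, adjusted p = 0.0493) and ASNS at 12 h (0.87, with an adjusted p that rounds to 0.05).

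Averaged over the 4 times, 1 of the 7 genes passed in each arm. Over all genes 3.07% passed in GLIS3 CRISPRko and 18.4% in VP64_A, so a single call of 7 is not more than the share of all genes in the second arm. The median log2 fold change of the 7 genes was -0.23 in GLIS3 CRISPRko and 0.27 in VP64_A, beside -0.008 and -0.004 for all genes.

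ASNS (chr7:97851677-97928441), asparagine synthetase, fell in GLIS3 CRISPRko. Its normalized CPM ran from 3.68 through a median of 13.8 to 21.1 in the 12 control libraries and from 3.47 through 7.99 to 11.9 in the 12 GLIS3 CRISPRko libraries. The difference averaged -0.84 ± 0.19 on the log2 scale (SE, edgeR's adjusted p = 0.00787), and the libraries of the 2 groups did not overlap at 6 and 24 h. Its value lay below 0 at all 4 times, from -0.39 at 12 h to -1.40 at 6 h. The call held in 28 of 30 alternative fits and was lost on the TPM scale (-0.74, adjusted p = 0.0895 from limma).

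In VP64_A the averaged log2 fold change of ASNS was 0.34 (adjusted p = 0.0675 from edgeR), and 0.37 with the replicate number as a block, where it passed (adjusted p = 0.035 from edgeR). At 12 h the VP64_A libraries held 11.5, 12.9 and 13.6 normalized CPM and those of VP64_Ctrl 7.50, 7.48 and 5.68. They did not overlap there, with a log2 fold change of 0.87 (adjusted p = 0.0637 from edgeR).

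SHMT2 (chr12:57229711-57234935), which moves a carbon unit from serine to folate in mitochondria, rose in VP64_A. It ran from 147 through 204 to 331 normalized CPM in the 12 VP64_A libraries and from 124 through 171 to 241 in VP64_Ctrl, ranges that overlap widely. The difference averaged 0.27 ± 0.08 on the log2 scale (SE, edgeR's adjusted p = 0.0191), positive at all 4 times. It was 0.10 on the TPM scale (adjusted p = 0.399 from limma), where the median of all genes stood at -0.13. In GLIS3 CRISPRko SHMT2 averaged -0.16 (adjusted p = 0.363 from edgeR).

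MTHFD2 (chr2:74198615-74217565), the folate enzyme that follows SHMT2, missed the threshold in both arms. It averaged -0.26 in GLIS3 CRISPRko (adjusted p = 0.0664 from edgeR) and 0.24 in VP64_A (adjusted p = 0.0502), and DESeq2 called both (adjusted p = 0.0306 and 0.0437). At 0 h its libraries did not overlap in either arm, at 121, 107 and 79.4 normalized CPM in CRISPRko control against 60.8, 73.8 and 74.5 in GLIS3 CRISPRko. The pseudogene MTHFD2P1 in the table had no count in any library.

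PSPH (chr7:56011064-56051444), the phosphatase that completes serine synthesis, averaged -0.33 in GLIS3 CRISPRko (adjusted p = 0.163 from edgeR) and 0.27 in VP64_A (adjusted p = 0.122). CHAC1 (chr15:40953471-40956512), which degrades glutathione, averaged 0.14 and 0.27 (adjusted p = 0.788 and 0.283 from edgeR). Its sign in GLIS3 CRISPRko turned to -0.04 without replicate 3 of the 6 h knockout libraries. ATF4 itself averaged 0.08 in GLIS3 CRISPRko and 0.22 in VP64_A (adjusted p = 0.739 and 0.0866 from edgeR), so no difference of its messenger between the groups passed the test.

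**Figure D2:**
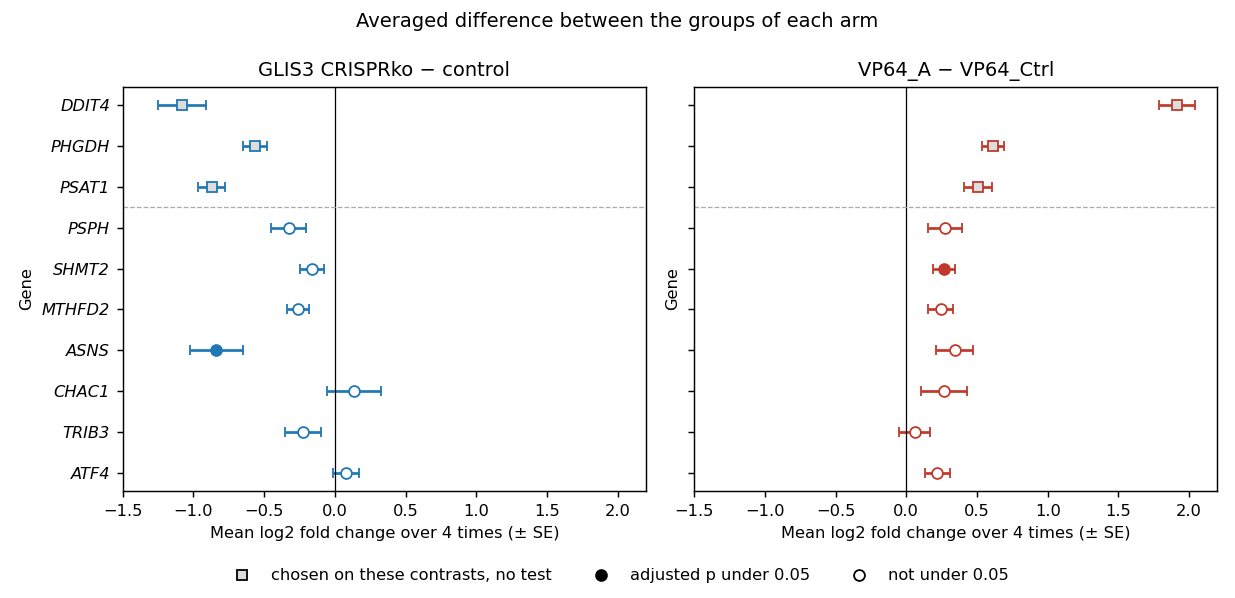
Log2 fold change averaged over the 4 times, with its standard error, for each gene in GLIS3 CRISPRko against control (left) and VP64_A against VP64_Ctrl (right). The squares are the genes chosen on these contrasts, among which DDIT4 lies farthest from 0 (-1.08 and 1.91), and the filled circles are the calls, ASNS on the left (-0.84) and SHMT2 on the right (0.27).

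TRIB3 (chr20:380760-397559), a pseudokinase that ATF4 induces and that feeds back on it, differed between VP64_A and VP64_Ctrl at 12 h. It stood at 18.8, 16.3 and 22.3 normalized CPM in VP64_A and at 8.88, 6.38 and 7.67 in VP64_Ctrl. No library overlapped, and the difference was 1.32 ± 0.23 on the log2 scale (SE, edgeR's adjusted p = 0.000274). The call held in all 13 alternative fits. At 0, 6 and 24 h the values lay on the other side of 0, at -0.35, -0.20 and -0.53, and missed the threshold (edgeR's adjusted p = 0.327, 0.786 and 0.254), although every VP64_A library was lower at 24 h, and the average over the 4 times was 0.06.

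The change from 0 h to 12 h of TRIB3 differed between the groups by 1.66 ± 0.31 (SE, edgeR's adjusted p = 0.0131), where 0.264% of all genes passed. Without replicate 1 of VP64_A at 0 h, replicate 3 of VP64_A at 12 h or replicate 2 of VP64_Ctrl at 12 h the adjusted p was 0.0568 to 0.0661, and with only the libraries compared it was 0.0518. TRIB3 was the sole one of the 7 genes whose change from 0 h differed between the groups by this test. At 6 and 24 h none passed in the CRISPRa arm, where 0.0911% and 0.209% of all genes did. An unadjusted p under 0.05 was reached by 1 of the 7 at each time, and by 1035 and 781 of all 10980 genes. In the CRISPRko arm none of the 7 passed at 6, 12 or 24 h, beside 0.00912%, 0.0% and 0.0% of all genes. There 1, 1 and 2 of the 7 had an unadjusted p under 0.05, beside 869, 709 and 616 of all 10962 genes. DESeq2 likewise called TRIB3 at 12 h in the CRISPRa arm and no other of these differences.

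After TGFβ and IL-1β the 10 genes took different courses, and here all of them are tested, against 0 h within each group. Per the study's methods the cytokines were added at staggered times before a common harvest, so an hour here is time with cytokines and the time in culture was shared. The 6, 12 and 24 h values of a group share its 0 h libraries, and the libraries are the same ones that chose DDIT4, PHGDH and PSAT1. The p-values of these 3 genes against 0 h therefore carry no support that is independent of that choice. Of 10 genes, 2, 5 and 3 passed at 6, 12 and 24 h in CRISPRko control fibroblasts, beside 15.9%, 19.6% and 10.3% of all genes. In GLIS3 CRISPRko the counts were 2, 5 and 3, beside 23.9%, 27.4% and 15.8%. In VP64_Ctrl they were 4, 10 and 4, beside 28.8%, 26.8% and 16%, and in VP64_A 2, 6 and 3, beside 17.4%, 19.7% and 13.6%. In these bulk libraries a change in the share of expressing cells and a change in messenger per cell cannot be told apart.

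ATF4 rose at 6 h in all 4 groups and then came down. It went from 191, 186 and 169.6 normalized CPM at 0 h to 344, 464 and 463 at 6 h in CRISPRko control fibroblasts. In GLIS3 CRISPRko it went from 237, 239.7 and 154 to 457, 568 and 525. The libraries of 0 and 6 h did not overlap in any group, and the log2 fold changes were 1.22 in control, 1.30 in GLIS3 CRISPRko, 1.35 in VP64_Ctrl and 1.06 in VP64_A (adjusted p = 8.11e-06, 2.16e-06, 6.51e-07 and 4.35e-05 from edgeR).

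At 12 h ATF4 was still up by 0.52 in CRISPRko control, 0.59 in VP64_Ctrl and 0.88 in VP64_A (adjusted p = 0.0441, 0.0134 and 0.000445 from edgeR). At 24 h it passed in VP64_A at 0.54 (adjusted p = 0.0405 from edgeR). The calls in control at 12 h and in VP64_A at 24 h were lost without any 1 of their 6 libraries (adjusted p up to 0.147 and 0.156). The first was also lost without the low-count filter (adjusted p = 0.0842), and the second there and on the TPM scale (adjusted p = 0.0801 and 0.219). That in VP64_Ctrl at 12 h turned to -0.008 on the TPM scale (adjusted p = 0.966 from limma, with the median of all genes at -0.51), and it was lost without replicate 3 at 0 h or replicates 1 or 3 at 12 h (adjusted p = 0.0573 to 0.0947).

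DDIT4 had its rise later. In CRISPRko control fibroblasts it stood at 10.8, 7.41 and 3.51 normalized CPM at 0 h, and its 24 h libraries were the highest of the series (44.2, 44.9 and 35.9). DDIT4 rose by 24 h in every group, by 2.45 in control, 1.81 in GLIS3 CRISPRko, 2.15 in VP64_Ctrl and 1.11 in VP64_A (adjusted p = 5.15e-07, 0.000123, 1.71e-07 and 0.000469 from edgeR). VP64_A, already higher at 0 h, reached its peak at 12 h with a log2 fold change of 1.40 (adjusted p = 1.27e-05 from edgeR). VP64_Ctrl rose from 6 h on, by 1.12 at 6 h and 1.06 at 12 h, calls that were lost on the TPM scale (0.20 and 0.34, adjusted p = 0.554 and 0.345 from limma), as was that of VP64_A at 24 h (0.86, adjusted p = 0.052).

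**Figure D3:**
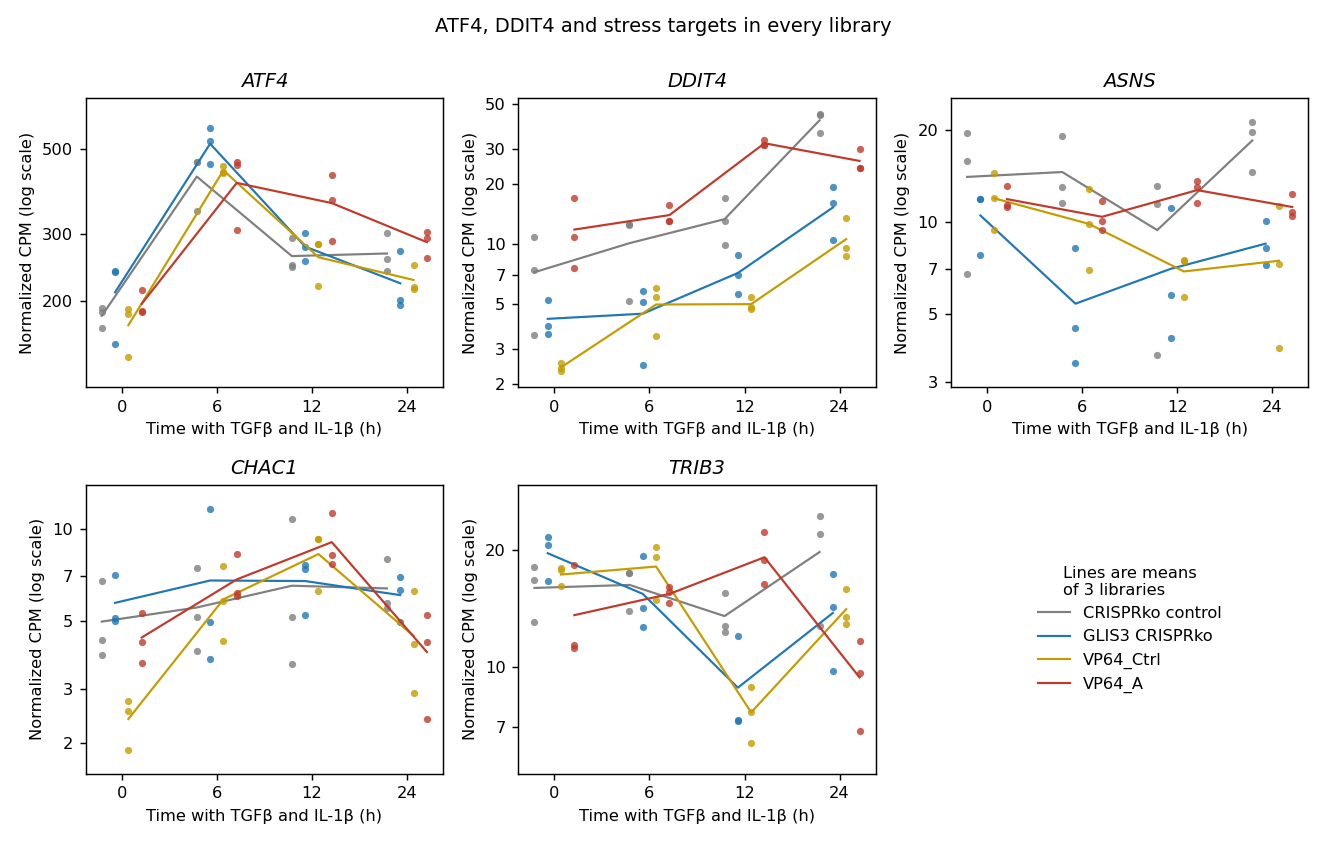
Normalized CPM (log scale) of ATF4, DDIT4, ASNS, CHAC1 and TRIB3 against hours with TGFβ and IL-1β (times evenly spaced), with a point per library and a line through the mean of 3 libraries for each group of cells. ATF4 peaks at 6 h in all groups, DDIT4 is highest at 24 h except in VP64_A (31.4 to 33 at 12 h), and TRIB3 parts VP64_A from VP64_Ctrl at 12 h.

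At 12 h the enzymes of serine synthesis fell, PSAT1 in 4 groups, PSPH in 3 and PHGDH in 2. PSAT1 went, in CRISPRko control fibroblasts from 71.3, 76.3 and 57.0 normalized CPM to 18.8, 30.4 and 25.4. In GLIS3 CRISPRko it went from 39.8, 30.9 and 47.8 to 13.9, 15.4 and 10.2. The log2 fold changes were -1.46, -1.56, -1.01 and -0.70 in control, GLIS3 CRISPRko, VP64_Ctrl and VP64_A (adjusted p = 7.35e-07, 1.75e-07, 0.000167 and 0.0064 from edgeR).

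PSAT1 at 24 h passed in none of the 4 groups, and in control its level was back at 65.3, 60.8 and 65.2. The 12 h call in VP64_A was lost without replicate 1 at 0 h (adjusted p = 0.0533). PSPH fell with it at 12 h in control (-1.03), GLIS3 CRISPRko (-0.96) and VP64_Ctrl (-0.81), with adjusted p = 0.00321, 0.003 and 0.0132 from edgeR. In VP64_A PSPH had -0.52 (adjusted p = 0.126).

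PHGDH fell in GLIS3 CRISPRko, from 67.2, 80.9 and 79.0 normalized CPM at 0 h to 32.3, 34.2 and 40.7 at 12 h. The log2 fold change was -1.09 at 12 h and -0.65 at 24 h (edgeR's adjusted p = 1.13e-05 and 0.00686). In control it had -0.25 and -0.21 at these times (adjusted p = 0.348 and 0.558). The difference between the groups' changes is part of the values that chose PHGDH and was not tested. The low GLIS3 CRISPRko libraries at 12 and 24 h belong to those values too. A call in GLIS3 CRISPRko beside none in control is thus no test of a difference. In VP64_Ctrl PHGDH fell by 0.45 and 0.49 on the log2 scale at 12 and 24 h (edgeR's adjusted p = 0.0219 and 0.0202), while VP64_A had -0.31 and -0.34 (adjusted p = 0.146 and 0.139).

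Single libraries bore on 3 of these PHGDH calls. In VP64_Ctrl the 12 h call was lost without replicate 2 at 0 h or replicates 2 or 3 at 12 h, and the 24 h call without replicate 2 at 0 h or replicates 1 or 3 at 24 h (adjusted p = 0.0534 to 0.0878). In GLIS3 CRISPRko the 24 h call was lost without replicate 1 at 24 h (adjusted p = 0.0562) and on the TPM scale (adjusted p = 0.418 from limma).

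The mitochondrial one-carbon enzymes went the other way. MTHFD2 rose at 6, 12 and 24 h in all 4 groups. In GLIS3 CRISPRko it went from 60.8, 73.8 and 74.5 normalized CPM at 0 h to 158, 172 and 177 at 6 h and 189.9, 165 and 217 at 12 h. In no group did a library at these times overlap one at 0 h.

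At 12 h the log2 fold changes of MTHFD2 were 0.99, 1.45, 1.43 and 1.07 in control, GLIS3 CRISPRko, VP64_Ctrl and VP64_A (adjusted p = 1.73e-05, 1.44e-08, 1.62e-07 and 2.63e-05 from edgeR). At 24 h they were 0.70 to 0.79. The 6 h calls were the least steady, in control without replicate 3 at 0 h or replicate 2 at 6 h (adjusted p = 0.0534 to 0.0875) and in VP64_A without replicate 2 at 0 h or replicate 2 at 6 h (adjusted p = 0.0829 to 0.106). Both were also lost on the TPM scale, as were the 24 h calls of every group but GLIS3 CRISPRko.

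SHMT2 rose at 12 h in control (0.70), VP64_Ctrl (0.60) and VP64_A (0.71), and at 24 h in control (0.78), with adjusted p = 0.00345, 0.00551, 0.00145 and 0.00217 from edgeR. In control it went from 129.6, 134.7 and 120.7 normalized CPM at 0 h to 213, 249.6 and 201 at 24 h, groups that did not overlap. GLIS3 CRISPRko had 0.40 at 12 h and 0.18 at 24 h (adjusted p = 0.0832 and 0.542), and whether its change differed from that of control did not pass the test of the difference. Its replicates 1, 2 and 3 at 24 h were uneven, at 186.8, 171.1 and 96.45 normalized CPM. All 4 calls of SHMT2 were lost on the TPM scale, and in VP64_Ctrl at 12 h the value was -0.01 there, where the median of all genes stood at -0.51.

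None of the 3 stress targets passed in all 4 groups. CHAC1 rose in VP64_Ctrl from 1.90, 2.74 and 2.55 normalized CPM at 0 h to 9.27, 9.30 and 6.25 at 12 h, a log2 fold change of 1.80 (adjusted p = 6.06e-05 from edgeR). It also rose there by 1.27 at 6 h and 0.95 at 24 h, and in VP64_A by 1.02 at 12 h (adjusted p = 0.0053, 0.0455 and 0.0157 from edgeR). In the CRISPRko arm CHAC1 passed at no time, with values from 0.07 to 0.44.

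The smaller CHAC1 calls leaned on single libraries and on the scale. On the TPM scale those in VP64_Ctrl at 6 and 24 h and in VP64_A at 12 h were all lost. They stood at 0.43, 0.42 and 0.65 there (adjusted p = 0.221, 0.34 and 0.156 from limma). The 6 h call in VP64_Ctrl was lost without replicate 2 at 6 h (adjusted p = 0.0641). The 24 h call was lost without any of its libraries but replicate 2 at 24 h (adjusted p = 0.0624 to 0.329). It was also lost in the blocked fit (adjusted p = 0.0557), without the low-count filter (0.0757) and with only the libraries compared (0.147). The call in VP64_A was lost without replicates 2 or 3 at 0 h or replicate 3 at 12 h (adjusted p = 0.0539 to 0.0969). ASNS fell at 12 h in VP64_Ctrl (-0.79, adjusted p = 0.0233 from edgeR), a call lost without replicate 1 at 0 h or replicate 3 at 12 h (adjusted p = 0.1 to 0.106).

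TRIB3 fell at 12 h in GLIS3 CRISPRko and in VP64_Ctrl. It went from 21.6, 20.6 and 16.6 normalized CPM to 7.26, 12.0 and 7.31 in the first and from 16.1, 17.7 and 18 to 8.88, 6.38 and 7.67 in the second. The libraries did not overlap, and the log2 fold changes were -1.12 and -1.18 (adjusted p = 0.000817 and 0.000163 from edgeR). CRISPRko control had -0.23 (adjusted p = 0.585) and VP64_A 0.49 (adjusted p = 0.108).

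The scale changes the balance of these directions. Of the calls against 0 h, 8 were up and 2 down in CRISPRko control fibroblasts, 5 and 5 in GLIS3 CRISPRko, 12 and 6 in VP64_Ctrl and 10 and 1 in VP64_A. With limma on log2(TPM + 1) they were 4 and 2, 5 and 7, 5 and 14, and 4 and 3. Of all 10962 genes it called 811, 1440 and 637 at 6, 12 and 24 h in control. In GLIS3 CRISPRko it called 3369, 1899 and 854. Of all 10980 genes it called 6177, 4711 and 2006 in VP64_Ctrl, of which 8.0%, 10.3% and 21.9% were up. In VP64_A it called 1116, 1408 and 1159. On that scale the median of all genes moved by -0.11 to -0.16 in control, -0.43 to 0.13 in GLIS3 CRISPRko, -0.65 to -0.32 in VP64_Ctrl and -0.22 to -0.21 in VP64_A. MT2A, a metallothionein, alone took 0.794% of all TPM at 0 h and 4.77% at 24 h in VP64_Ctrl, and its part in this shift was not tested. ATF4 at 6 h, PSAT1 at 12 h and MTHFD2 at 12 h kept their calls in all 4 groups on both scales.

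Beyond the 10 genes, 106 genes in 9 lists of related function were examined, of which 94 were tested in each arm. In VP64_A 33 of them rose and 7 fell over the average of the 4 times, 42.6% against 18.4% of all genes, with a median log2 fold change of 0.21. The lists were chosen with earlier results of these data known. This share and those by list are thus a description and carry no independent support. By list, 57.1% of the tRNA list, 62.5% of other amino acid synthesis and 38.5% of glycine and one-carbon genes passed. For the transporters, mTORC1 regulators and glucocorticoid genes, with 10, 7 and 4 tested, it was 30%, 28.6% and 25%, near the share of all genes. On the TPM scale the counts were 16 and 12, where 1736 of all 10980 genes passed, 23.4% of them higher in VP64_A. In GLIS3 CRISPRko 1 rose and 3 fell (4.26% against 3.07% of all genes), and limma on the TPM scale called none, beside 118 of all 10962 genes.

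Enzymes that load amino acids onto transfer RNA, with the tRNA exporter XPOT, showed 12 of 21 genes up and none down in VP64_A, with a median of 0.27. The largest were XPOT (0.54), IARS (0.49) and EPRS (0.48), with adjusted p = 0.000883, 0.000125 and 2.78e-05 from edgeR. XPOT was also the 1 gene of this list to fall in GLIS3 CRISPRko (-0.33, adjusted p = 0.0256). On the TPM scale 4 of the 21 passed in VP64_A, all of them up.

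Of 16 other amino acid synthesis genes 8 rose in VP64_A, led by GPT2 (0.90), ASS1 (0.72) and BCAT2 (0.60), with adjusted p = 0.00829, 8.77e-08 and 0.000198 from edgeR. GPT2 makes alanine, ASS1 joins citrulline to aspartate on the way to arginine, and BCAT2 transaminates branched-chain amino acids. GLUL, which makes glutamine, fell (-0.29, adjusted p = 0.00798). In GLIS3 CRISPRko BCAT1 fell (-0.42, adjusted p = 0.00223) and none rose. On the TPM scale 3 rose and 2 fell in VP64_A.

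Glycine cleavage and one-carbon genes gave 4 up and 1 down of 13 tested in VP64_A, with GCSH (0.58), ALDH1L2 (0.41) and MTHFD2L (-0.79) farthest from 0 (adjusted p = 5.37e-05, 0.0212 and 0.0138 from edgeR). On the TPM scale 1 rose and 2 fell, with a median of 0.02. None passed in GLIS3 CRISPRko by edgeR or DESeq2, and 2 had an unadjusted p under 0.05, as had 1771 of all 10962 genes. The amino acid transporters were split. SLC7A5, which imports large neutral amino acids such as leucine, rose from 22.4 to 52.1 median normalized CPM, by 1.16 on the log2 scale (adjusted p = 6.11e-12 from edgeR). SLC7A11, which imports cystine, fell from a median of 32.6 to 6.88, by 2.41 (adjusted p = 2.53e-13), and SLC6A9, a glycine transporter, by 0.80 (adjusted p = 0.0204). The other 7 of 10 did not pass (1 rose and 3 fell on the TPM scale), and none passed in GLIS3 CRISPRko by edgeR or DESeq2 (1 at an unadjusted p under 0.05).

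Over the average of the 4 times no upstream gene of the stress response passed by edgeR or DESeq2. These are the eIF2α kinases, phosphatase subunits and partner transcription factors, with 13 tested in GLIS3 CRISPRko and 12 in VP64_A. An unadjusted p under 0.05 was reached by 4 and 1 of them, beside 1771 of all 10962 genes in GLIS3 CRISPRko and 3316 of 10980 in VP64_A. On the TPM scale 2 fell in VP64_A over that average. At single times edgeR called 1 of the 12 higher in VP64_A at 0 h and 1 at 12 h (8.33%, beside 9.41% and 4.31% of all genes). These are messenger levels, and kinase activity was not measured. Further genes known to be ATF4 outputs went both ways in VP64_A, with STC2 (1.01) and EIF4EBP1 (0.79) up and GDF15 (-1.95) down (adjusted p = 7.99e-12, 6.33e-10 and 0.00309 from edgeR). GDF15 was near its detection limit, at 0 to 6 counts in the VP64_A libraries. In GLIS3 CRISPRko EIF4EBP1, which encodes a translation repressor that mTORC1 inactivates, fell by 0.37 on the log2 scale and STC2 rose by 0.34 (adjusted p = 0.0132 and 0.00553 from edgeR).

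**Figure D4:**
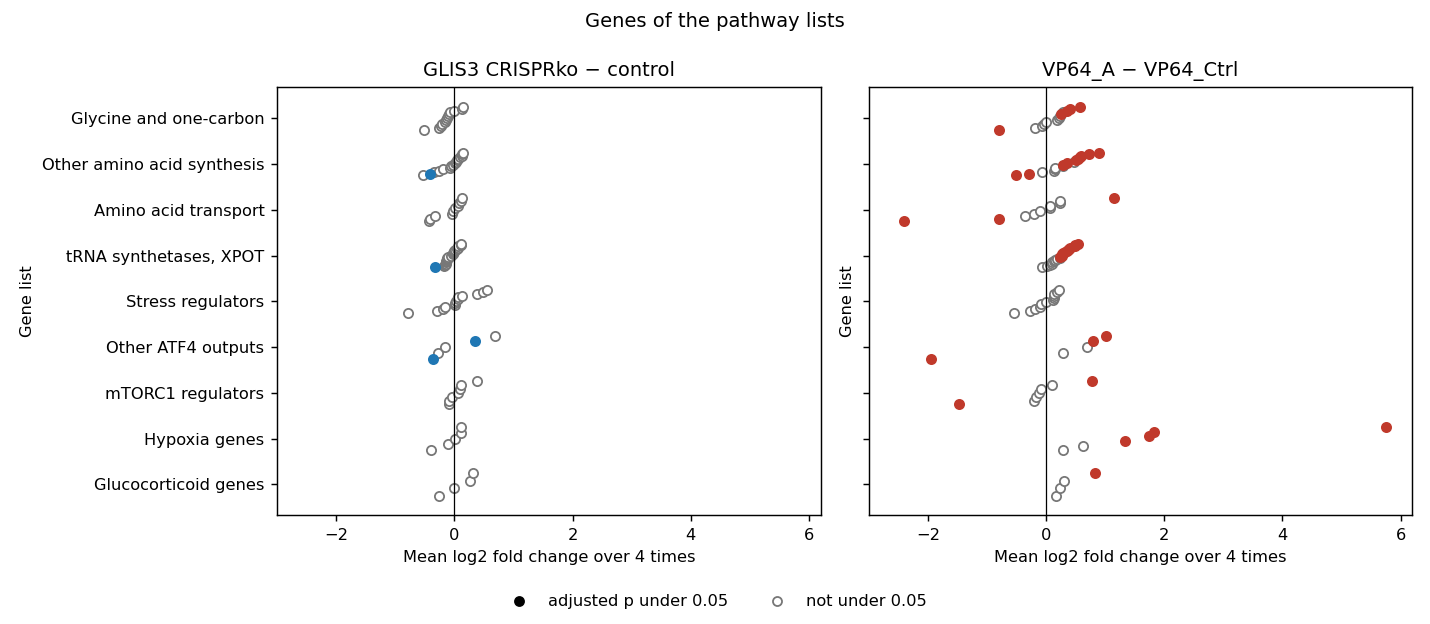
Log2 fold change averaged over the 4 times of each gene in the 9 lists, in GLIS3 CRISPRko against control (left) and VP64_A against VP64_Ctrl (right), with filled points for adjusted p under 0.05. On the right 12 of 21 tRNA synthetase genes and 4 of 6 hypoxia genes are filled and lie above 0, and SLC7A11 lies at -2.41 among the transporters. The point at 5.75 is CA9, whose VP64_Ctrl libraries are at or near 0 counts, so its place depends on the fit and is no bound.

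The element shown above for ASNS and CHAC1 was in a promoter of 21 of the 83 list genes that had one (25.3%). Counted by promoter it was in 23 of 125. Several of the lists were drawn up from genes known to answer to ATF4. It was in a promoter of 5 of 23 genes that rose in VP64_A, of none of 5 that fell and of 14 of 45 that did not pass. The other 10 genes were not tested. For 3 that rose it lies before the start site, and it is shown with the match in capitals on the strand of the gene (the opposite strand holds TGATGNAA in each).
AARS1: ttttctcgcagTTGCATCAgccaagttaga
GARS1: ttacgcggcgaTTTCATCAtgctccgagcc
IARS1: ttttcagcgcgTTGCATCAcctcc
They lie at chr16:70289675-70289704 (minus strand), chr7:30594834-30594863 (plus strand) and chr9:92293698-92293721 (minus strand) of GRCh38.p14.

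Several hypoxia genes, like DDIT4, stood higher in VP64_A than in VP64_Ctrl. BNIP3, a mitophagy receptor, ran from 149 through a median of 223 to 571 normalized CPM in VP64_A and from 52.7 through 64.7 to 146 in VP64_Ctrl, and no library of the 2 groups overlapped. Its averaged log2 fold change was 1.84 (adjusted p = 1.62e-15 from edgeR). In VP64_A BNIP3 was highest at 24 h (571, 440 and 487 normalized CPM), whereas DDIT4 was highest at 12 h. In each group every BNIP3 library at 24 h lay above every one at 0 h. In CRISPRko control it went from 70.1, 70.2 and 63.2 to 120, 116 and 118, and in GLIS3 CRISPRko from 65.6, 73.4 and 62.1 to 184, 123 and 102. These courses were not tested. PDK1 had a median of 24.4 against 6.06 and a log2 fold change of 1.74 (adjusted p = 3.82e-10 from edgeR).

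CA9, a carbonic anhydrase used as a hypoxia marker, had 2 to 19 counts in each of the 12 VP64_A libraries and no count in 11 of the 12 VP64_Ctrl libraries (adjusted p = 1.59e-08). ANKRD37 rose by 1.34 on the log2 scale (adjusted p = 0.000179). Thus 4 of 6 tested hypoxia genes rose in VP64_A, on the TPM scale as well. In GLIS3 CRISPRko none of 5 passed by edgeR or DESeq2, none had an unadjusted p under 0.05 and their median was 0.01, beside -1.08 for DDIT4. Their part in the level of DDIT4 was not tested.

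Of the glucocorticoid-induced genes TSC22D3 rose in VP64_A (0.83, adjusted p = 2.1e-05 from edgeR) and 3 of 4 tested did not pass, and in GLIS3 CRISPRko none of 4 passed by edgeR or DESeq2, or had an unadjusted p under 0.05. In the list of mTORC1 regulators, DDIT4L, a relative of DDIT4, fell in VP64_A (-1.48, adjusted p = 0.000581) and the arginine sensor CASTOR1, listed as GATSL3, rose (0.78, adjusted p = 0.00676). Both were low, at 0 to 20 and 5 to 43 counts in the VP64_A libraries. The other 5 of the 7 tested in this list, among them RHEB, which is no brake but the activator that TSC1 and TSC2 hold back, did not pass (0 rose and 2 fell on the TPM scale), and in GLIS3 CRISPRko none passed by edgeR or DESeq2, or had an unadjusted p under 0.05.

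**Figure D5:**
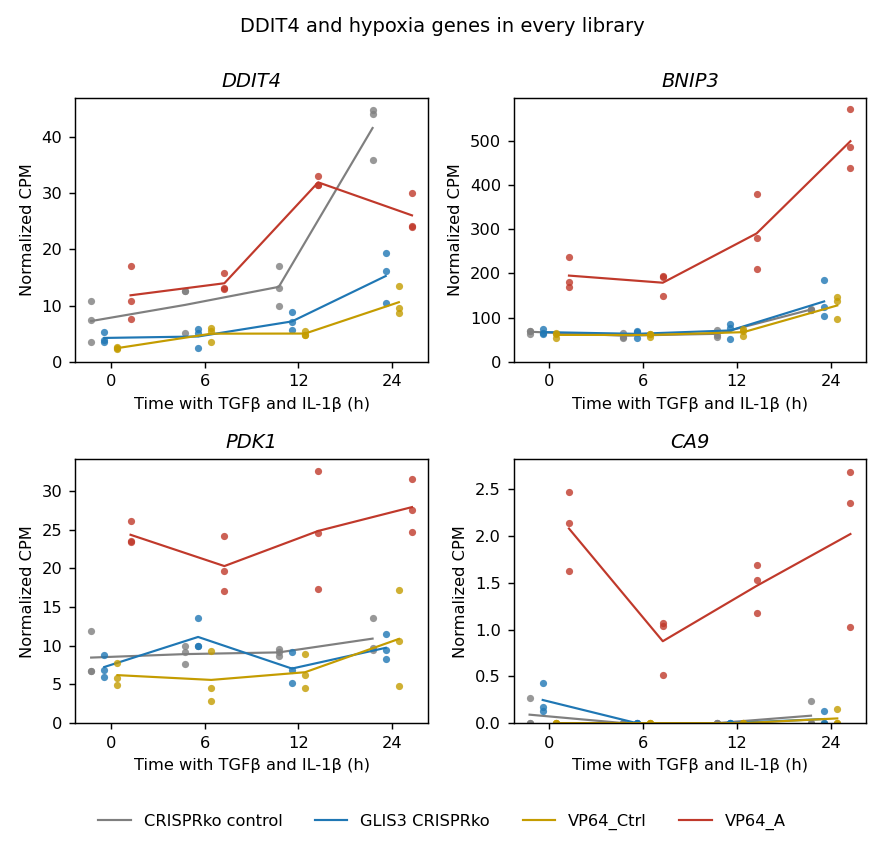
Normalized CPM (linear scale) of DDIT4, BNIP3, PDK1 and CA9 against hours with TGFβ and IL-1β (times evenly spaced), with a point per library and a line through the mean of 3 libraries for each group of cells. The mean of VP64_A stands above those of the other 3 groups at every time for BNIP3, PDK1 and CA9, whereas DDIT4 at 24 h is highest in CRISPRko control (35.9 to 44.9).

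As a description over the means of the 16 conditions, centred within each arm, the genes nearest to DDIT4 of the 10691 tested in both arms were AK4 (r = 0.90), KDM3A (0.89), PRDX4 (0.89), TLDC1 (0.89) and COL6A2 (0.89). Of the other 9 genes SHMT2 came closest to DDIT4 (0.75) and TRIB3 was farthest (0.05). Nearest to PHGDH were SCD5 (0.90), MFAP4 (0.87), PA2G4 (0.86), IFT43 (0.84) and NF2 (0.84), and PSAT1 came 8th at 0.83. PSAT1 also ran close to PSPH (0.85) and ASNS (0.79), and SHMT2 to MTHFD2 (0.75), whereas PSPH and MTHFD2 ran opposite (-0.65). The points of 1 group share a 0 h level and a cytokine course, so these values say how alike the profiles were and carry no test. DDIT4, PHGDH and PSAT1 were also chosen for being lower in GLIS3 CRISPRko and higher with GLIS3 activated. Centring within each arm keeps these differences between the groups. Likeness among these genes, such as that of PHGDH and PSAT1, is thus not independent of that choice.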

How the data were processed

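The authors used Trim Galore for trimming, SortMeRNA against ribosomal RNA, STAR for alignment (GRCh38) and Salmon for quantification, and deposited tables of estimated counts and of TPM. Versions are not given in the sources used here. Estimated counts, of which 6.38% were not whole, were rounded. Each arm (24 libraries, 8 conditions) was fitted with edgeR 4.0.16 (TMM, filterByExpr with a minimum count of 10 and a total of 15, quasi-likelihood F test, R 4.3.3), leaving 10962 and 10980 genes, with Benjamini-Hochberg adjustment over all of them and a threshold of 0.05. All 10 genes passed the filter in both arms. Standard errors are the log2 fold change over the square root of F.

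The genes and lists were chosen with earlier results of these data known. Named list genes were those called with the largest changes, at most 3 in a list and arm. Similar genes were ranked by Pearson's r. The fit was tested on simulated data. Alternatives were DESeq2 1.42.0, its size factors in edgeR, no filter, fits of only the compared libraries, the replicate number as a block, limma 3.58.1 on the deposited TPM (log2, plus 1 or 0.1), and each library left out. Promoters are RefSeq's (GRCh38.p14).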

Additional observations from a re-analysis of the deposited data

Results flagged for a closer look

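The change of TRIB3 from 0 h to 12 h differed between VP64_A and VP64_Ctrl by 1.66 on the log2 scale (adjusted p = 0.0131 from edgeR), the test of the difference itself. TRIB3 fell from a mean of 17.3 to 7.64 normalized CPM in VP64_Ctrl and stood at 13.6 and 19.1 in VP64_A, where the change did not pass. Over 19 alternative fits the difference ran from 1.53 to 1.95, with adjusted p from 0.000574 to 0.0661, and it passed in 15 of them.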

How the results depend on the processing

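Of the 7 genes at the 4 times in GLIS3 CRISPRko, edgeR called 0, DESeq2 1, a fit without the low-count filter 2 and a fit of only the libraries compared 1. In VP64_A the same counts were 1, then 3 with DESeq2, 2 with only the libraries compared and 2 with the replicate block. Averaged over the times, the 1 call in GLIS3 CRISPRko became 2 with DESeq2 and 0 on either TPM scale, and the 1 call in VP64_A became 2 with DESeq2, 2 with the replicate block and 0 on either TPM scale. The 4 list genes called in GLIS3 CRISPRko became 7 without the filter and 0 on either TPM scale, and the 40 in VP64_A became 28 and 27 on the TPM scales. The number of calls against 0 h went from 10 to 6 in CRISPRko control and from 11 to 7 in VP64_A on either TPM scale.

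Leaving out each library gave 0 to 1 calls at single times in GLIS3 CRISPRko (1 without replicate 3 of the 0 h control or replicate 1 of the 24 h knockout) and 1 to 2 in VP64_A (2 without replicates 1 or 2 of VP64_A at 12 h or of VP64_Ctrl at 24 h). Averaged, it gave 1 to 2 in GLIS3 CRISPRko (2 without the libraries just named or replicate 3 of the 12 h knockout). It gave 1 to 3 in VP64_A, with 3 without replicate 2 at 12 h. It gave 2 there without replicate 2 at 0 h, replicate 1 at 6 h or replicate 3 at 12 h of VP64_A, or replicate 1 at 0 h, replicates 1 or 3 at 6 h, replicate 3 at 12 h or replicates 1 or 2 at 24 h of VP64_Ctrl. List genes ranged from 3 to 6 and from 37 to 43, and calls against 0 h from 8 to 11, 9 to 11, 15 to 18 and 9 to 11 in control, GLIS3 CRISPRko, VP64_Ctrl and VP64_A.

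The sign turned for TRIB3 averaged in VP64_A (0.06) to -0.14 and -0.15 on the TPM scales and -0.006 without replicate 2 of VP64_A at 0 h. It turned for ATF4 and SHMT2 at 12 h in VP64_Ctrl to -0.008 and -0.014 on both TPM scales, and for CHAC1 averaged in GLIS3 CRISPRko to -0.04 without replicate 3 of the 6 h knockout (up to 0.28 without other libraries). The causes were not tested.

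Between same-numbered libraries the deviations from the condition means correlated at -0.05 to 0.19, over 0.1 in 6 of 24 pairs. Differently numbered libraries were not compared in this way, so these values cannot decide whether the numbers mark a pairing. The replicate block moved the counts as given above, lost CHAC1 at 24 h in VP64_Ctrl (0.93) and gained ASNS averaged in VP64_A (0.37). Depth limits DDIT4, ASNS, CHAC1 and CA9 most, with libraries under 10 counts.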
